A study of Mus musculus with 20 samples.

Results

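The 10 genes described here (Piwil1, Piwil2, Piwil4, Mael, Tdrd1, Tdrd5, Tdrd7, Tdrd9, Mov10l1 and Asz1) encode proteins of the piRNA pathway. They were chosen by name, with earlier results of these data known, and every probe set annotated to one of the symbols was taken, which gave 13 probe sets of 45037 and 10 genes of 18193. No filter on low values was used, so all 10 were measured and tested.

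PIWI-interacting RNAs (piRNAs) are small RNAs of the animal germline that guide PIWI-clade Argonaute proteins to transcripts of transposable elements. In the mouse testis the pathway cleaves such transcripts in the cytoplasm and directs DNA methylation to their promoters in the nuclei of fetal germ cells, and male mice that lack one of several of its genes are sterile. Tudor-domain proteins bind the methylated arginines of PIWI proteins and gather them, with RNA helicases, in granules beside the mitochondria.

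Transcripts were measured on 20 Affymetrix mouse arrays as log2 intensities. Germline stem cells (GSC, 3 arrays) were cultured from testes of the OG2 strain, named B6;CBA-Tg[Pou5f1-EGFP]2Mnn/J, in which the Oct4 (Pou5f1) promoter drives green fluorescent protein, with GDNF, bFGF, EGF and LIF, and were maintained on mitomycin C-inactivated embryonic fibroblasts. Germline pluripotent stem cells (gPS, 5 arrays) came from the same OG2 strain: about 1000 GSC were plated per well on fibroblasts, and round, strongly fluorescent colonies that appeared within 3 to 4 weeks were expanded in embryonic stem cell medium. The embryonic stem cells (ESC, 3 arrays) were of the RW4 line and grew on fibroblast feeders with LIF. ESC-like cells (ESC_like, 3 arrays) came from testes of mice at postnatal days 0 to 2, were supplied by another laboratory and were grown in the same way, per their growth protocol. Their description field instead speaks of GSC from Oct4-GFP mice, so the labels do not settle the strain and origin of this group. Neural stem cells (NSC, 3 arrays) were derived from Olig2-GFP embryonic stem cells, and mouse embryonic fibroblasts (MEF, 3 arrays) from C3H embryos at E12.5. The age of the mice that gave the GSC is not stated. The labels do not say whether the arrays of a group came from separate cultures, so the p-values below measure only the spread between these samples, which may be technical. The number of arrays limits the precision of every value.

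The median of all values was 4.97, the array medians ran from 4.94 to 5.04, and arrays of 1 group correlated across probe sets at r = 0.978 to 0.997. GSC replicate 1 stood apart in the 3′ minus 5′ difference of the Actb control probe sets, an RNA quality measure, with 1.25 against 0.51 and 0.49 in the other GSC arrays and 0.12 to 0.57 elsewhere. The cell type labels were checked against 6 marker lists by the log2 of the summed intensity of each list. The germ cell list (Dazl, Ddx4, Tex101, Dmrt1, Sohlh1, Zbtb16, Gfra1 and Ret, all 8 measured) summed to 13.77 to 13.92 in GSC, 9.06 to 10.11 in gPS, 8.69 to 8.78 in ESC, 9.18 to 9.33 in ESC_like, 7.30 to 7.52 in NSC and 8.59 to 8.71 in MEF. The pluripotency list summed to 15.05 to 15.37 in gPS, 15.23 to 15.24 in ESC and 15.00 to 15.08 in ESC_like, against 11.46 to 11.61 in GSC. The neural list was highest in NSC, at 14.04 to 14.14, the fibroblast list was highest in MEF, at 14.77 to 14.84, and a list for Sertoli and Leydig cells lay between 8.56 and 9.16 on all 20 arrays. Within that list Wt1 had a GSC mean of 6.42 ± 0.69 (SD), against 3.61 to 4.80 in the other groups. The rest of the list had its highest means outside GSC, such as Sox9 in NSC (7.33) and Clu in ESC_like (8.24). The part of testis somatic cells in the GSC values was not tested. By the sums, no label went against its markers.

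All 10 genes were higher in GSC than in every other group, and each of them fell in gPS cells. On the arrays of GSC, Mael, Piwil2 and Mov10l1 were among the brightest signals, with means of 11.61 ± 0.10, 11.38 ± 0.22 and 11.20 ± 0.06 (SD, n = 3), and Mael and Piwil2 stood at the 98.6th and 98.3rd percentile of all probe sets. In gPS the same genes were at 5.20 ± 0.86, 5.57 ± 0.37 and 5.12 ± 0.09 (SD, n = 5). Calls were made with limma over all 18193 genes and needed both an adjusted p (Benjamini-Hochberg) under 0.05 and a difference of at least 2-fold, and errors marked SE are limma's. For gPS minus GSC, 10 of 10 genes were called lower and 10.9% of all genes were. The median difference of the 10 genes was -4.90 on the log2 scale, beside 0.02 for all genes, and no gPS array reached the lowest GSC array for any of them, an order that 22.3% of all genes showed. These are bulk cultures, in which fewer cells of a type and less RNA per cell cannot be told apart.

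**Figure D1:**
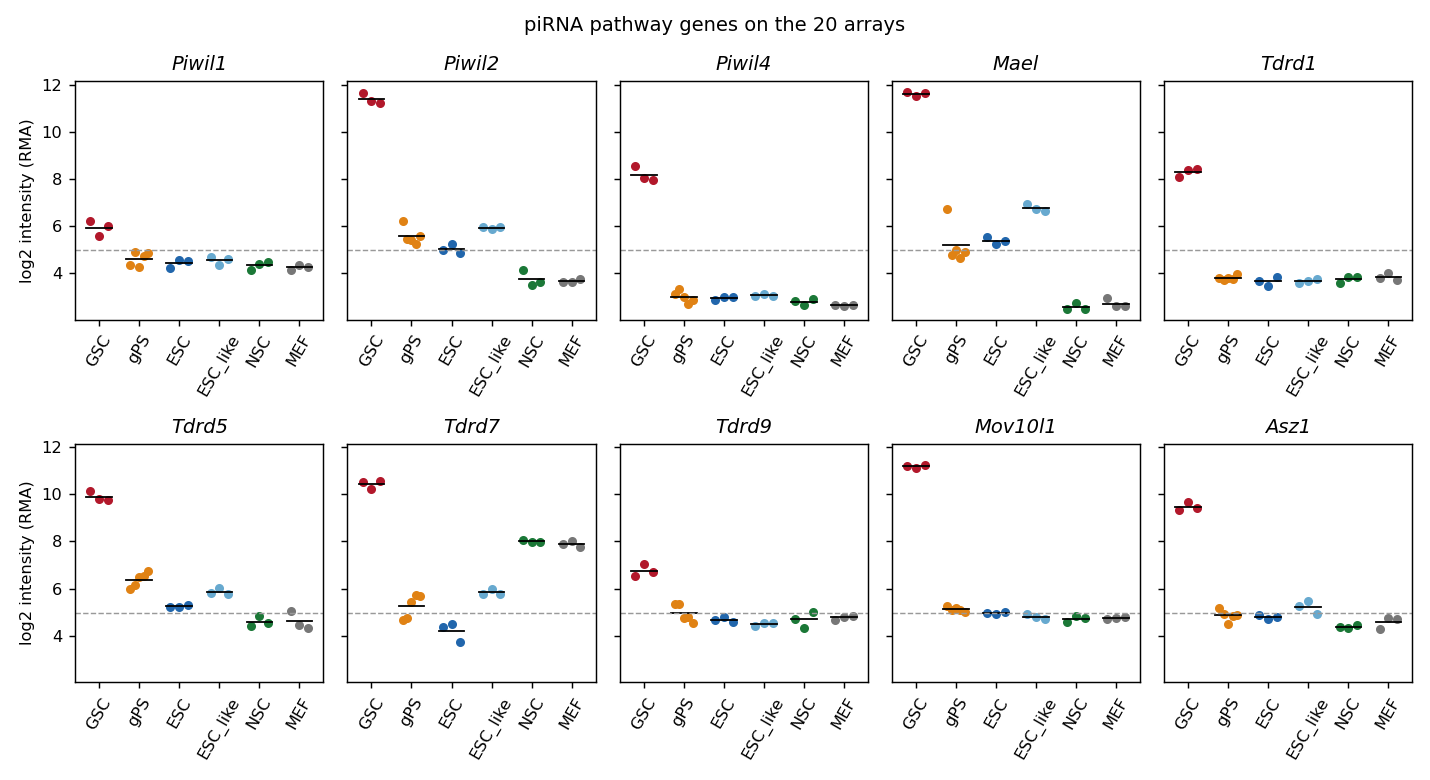
Log2 intensity (RMA) of the 10 piRNA pathway genes on each of the 20 arrays, 1 panel per gene; each dot is an array, the black line is the group mean and the dashed line is the median of all values (4.97). The GSC dots lie above all others in every panel, while for Tdrd7 the NSC and MEF dots form a second, lower level near 8.

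The 3 PIWI proteins are the pathway's effectors. Piwil2 (MILI) cleaves transposon transcripts and starts the piRNA amplification cycle in germ cells from fetal life onwards. Its log2 intensity was 11.63, 11.29 and 11.23 in GSC and 6.21, 5.43, 5.42, 5.24 and 5.56 in gPS. The groups lay far apart, and the difference was -5.81 ± 0.18 (SE), a 56.2-fold fall (limma, adjusted p = 2.18e-16). Piwil4 (MIWI2) is the nuclear PIWI protein that directs DNA methylation in fetal germ cells. The probe set with the higher mean over all arrays read 8.55, 8.01 and 7.93 in GSC and 3.11, 3.33, 2.98, 2.66 and 2.83 in gPS. The gPS values lay at the lower edge of the arrays' range, as did those of all other groups, and the difference was -5.18 ± 0.14 (SE), or 36.2-fold (limma, adjusted p = 3.30e-17). The gPS mean of 2.98 stood at the 7.20th percentile of probe sets, so the fold can be read only as a lower bound. Piwil1 (MIWI) acts mainly in meiotic and postmeiotic male germ cells. It read 6.20, 5.57 and 5.98 in GSC and 4.34, 4.91, 4.24, 4.73 and 4.84 in gPS. Its GSC mean stood at only the 62.8th percentile of probe sets, and it fell by 1.31 ± 0.16 (SE) on the log2 scale, or 2.47-fold (limma, adjusted p = 6.79e-07). Its gPS mean stood 0.33 above the mean of NSC and MEF, so this fold too can be read only as a lower bound.

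Spermatocyte and spermatid markers were checked beside the PIWI genes because GSC cultures start from testis. The list (Sycp1, Sycp3, Spo11, Meiob, Hspa2, Pgk2, Acrv1, Tnp1, Prm1 and Prm2, all 10 measured) summed to 11.73 to 11.86 in GSC and 8.30 to 8.75 in gPS, and to 9.62 to 9.92 in ESC and 7.92 to 8.06 in ESC_like. In ESC, Sycp3 had a mean of 9.33. Of the 10 members of the list, 5 had GSC means under the median of all values. The spermatid markers Tnp1, Acrv1, Prm1 and Prm2 had GSC means of 3.38, 3.17, 6.58 and 4.94. Their gPS means were 3.50, 3.24, 6.61 and 5.27. The synaptonemal complex genes Sycp3 and Sycp1 had GSC means of 11.35 and 9.40 and gPS means of 6.93 and 4.21. Spo11 had means of 5.17 in GSC and 3.79 in gPS, and Hspa2 of 5.96 and 5.09. Meiob had means of 3.35 and 3.00, and Pgk2 of 2.89 and 3.28, in the same order. The part of these markers in the results on Piwil1 was not tested.

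Genes of proteins that make piRNAs or work beside the PIWI proteins fell too. Mov10l1 is the RNA helicase that binds piRNA precursor transcripts and feeds them into processing. It read 11.21, 11.13 and 11.25 in GSC and 5.25, 5.08, 5.17, 5.10 and 5.02 in gPS. Within GSC and within gPS its arrays agreed more closely than those of Mael or Piwil2, and it was 67.4-fold lower in gPS, a difference of -6.07 ± 0.09 (SE; limma, adjusted p = 4.45e-21). Mael (Maelstrom) is a germ granule and nuclear protein needed for transposon silencing in meiotic germ cells. It read 11.69, 11.50 and 11.64 in GSC and 6.72, 4.77, 4.99, 4.63 and 4.88 in gPS. One gPS array, replicate 1, stood above the other 4, and the mean difference was -6.41 ± 0.30 (SE), or 85.2-fold (limma, adjusted p = 2.30e-13). Asz1 (GASZ) is an ankyrin-repeat protein of the mitochondrial surface that stabilises Piwil2 protein. The probe set with the higher mean over all arrays read 9.31, 9.69 and 9.42 in GSC and 5.17, 4.91, 4.51, 4.83 and 4.87 in gPS, a difference of -4.62 ± 0.15 (SE), or 24.5-fold (limma, adjusted p = 5.78e-16). In gPS, Mov10l1 and Asz1 stood only 0.39 and 0.38 above the mean of NSC and MEF. Their folds can therefore be read only as lower bounds.

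The 4 Tudor-domain genes differed widely among themselves. Tdrd1 is the Tudor protein of the cytoplasmic granules that hold Piwil2. It read 8.07, 8.36 and 8.43 in GSC and lay between 3.71 and 3.96 on the 5 gPS arrays (median 3.77), a difference of -4.50 ± 0.11 (SE; limma, adjusted p = 9.56e-18). Tdrd9 is an RNA helicase with a Tudor domain that acts with Piwil4. It read 6.52, 7.05 and 6.72 in GSC and 5.33, 5.34, 4.76, 4.78 and 4.56 in gPS. Its difference was among the smaller ones, at -1.81 ± 0.17 (SE), or 3.51-fold (limma, adjusted p = 1.69e-08). In gPS, Tdrd1 and Tdrd9 stood 0.01 and 0.22 above the mean of NSC and MEF. Both differences can therefore be read only as lower bounds. Tdrd5, a protein of the perinuclear granules, read 10.13, 9.81 and 9.76 in GSC and 5.99, 6.16, 6.47, 6.53 and 6.74 in gPS. All 5 gPS values stayed above the median of all values, and the difference was -3.52 ± 0.17 (SE), or 11.5-fold (limma, adjusted p = 3.68e-13). Tdrd7, which is also known for its role in the eye lens, read 10.51, 10.22 and 10.57 in GSC and 4.68, 4.75, 5.42, 5.74 and 5.68 in gPS, a difference of -5.18 ± 0.21 (SE; limma, adjusted p = 2.70e-14). Within gPS, replicates 1 and 2 read lower for Tdrd7 than the other 3.

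The RefSeq promoter table (GRCm38.p6, 32851 windows of 300 bases in 27025 genes, each with 250 bases before and 50 after an annotated start) held 14 windows of 9 of the 10 genes, with no entry for Piwil2. The sequences are shown because the 10 genes moved together between GSC and gPS. The E-box CACGTG, which reads the same on both strands, was present in windows of 5 of the 9 genes. It contains a CG, and most of the 14 windows held more CG dinucleotides than the median window (7), so all windows are not a matched background. Of the 14 windows 6 held CACGTG, beside 7.15% of all windows, and 2 of these 6 overlap at Tdrd1 and share 1 site. Counted from the annotated start to the first base of the site, it lay at -223 in Mael, at -179 and -154 in Piwil1, at -165 and -95 in Tdrd9, at -246 in Mov10l1 and at -11 in Tdrd1. The E2F-type heptamer GCGGGAA, searched on both strands, was found in 1 of the 14 windows, that of Tdrd5, and in 4.6% of all windows. The Myb-type heptamer AACNGTT, also on both strands, was found in 1 of the 14 windows, at the second annotated start of Piwil4, and in 4.45% of all windows. A match is a stretch of letters and not a measured binding site, and no value in these data bears on binding. The 250 bases before the start, 5′ to 3′ on the gene's own strand, follow for the 5 genes with CACGTG in capitals, and for Tdrd5 with the reverse complement of GCGGGAA in capitals.
Mael, chr1:166238745-166238994, minus strand: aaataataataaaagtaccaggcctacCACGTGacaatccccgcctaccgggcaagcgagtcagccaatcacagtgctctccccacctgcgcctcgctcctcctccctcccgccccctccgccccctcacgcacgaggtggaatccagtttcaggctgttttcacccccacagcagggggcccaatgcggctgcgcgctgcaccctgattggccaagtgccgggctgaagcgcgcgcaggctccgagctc
Piwil1, chr5:128735996-128736245, plus strand: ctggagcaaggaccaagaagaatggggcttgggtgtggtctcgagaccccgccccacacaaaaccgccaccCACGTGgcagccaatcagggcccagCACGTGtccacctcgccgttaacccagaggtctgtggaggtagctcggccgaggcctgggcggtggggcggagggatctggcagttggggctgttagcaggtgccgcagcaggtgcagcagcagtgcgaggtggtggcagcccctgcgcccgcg
Tdrd9, chr12:111971309-111971558, plus strand: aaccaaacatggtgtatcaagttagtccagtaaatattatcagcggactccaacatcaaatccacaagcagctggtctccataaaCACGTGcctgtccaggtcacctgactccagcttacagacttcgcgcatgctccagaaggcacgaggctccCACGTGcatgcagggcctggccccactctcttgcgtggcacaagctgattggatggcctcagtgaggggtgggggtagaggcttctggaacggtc
Mov10l1, chr15:88982744-88982993, plus strand: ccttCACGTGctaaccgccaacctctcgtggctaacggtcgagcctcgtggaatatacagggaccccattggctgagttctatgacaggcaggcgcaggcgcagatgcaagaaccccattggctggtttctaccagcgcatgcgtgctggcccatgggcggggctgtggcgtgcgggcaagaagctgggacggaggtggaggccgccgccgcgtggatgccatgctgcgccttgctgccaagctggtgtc
Tdrd1, chr19:56825959-56826208, plus strand: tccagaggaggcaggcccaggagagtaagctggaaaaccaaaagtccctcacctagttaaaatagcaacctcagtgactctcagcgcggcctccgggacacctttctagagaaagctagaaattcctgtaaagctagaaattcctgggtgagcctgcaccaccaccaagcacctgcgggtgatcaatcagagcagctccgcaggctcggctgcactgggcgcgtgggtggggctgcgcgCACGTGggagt
Tdrd5, chr1:156303349-156303598, minus strand: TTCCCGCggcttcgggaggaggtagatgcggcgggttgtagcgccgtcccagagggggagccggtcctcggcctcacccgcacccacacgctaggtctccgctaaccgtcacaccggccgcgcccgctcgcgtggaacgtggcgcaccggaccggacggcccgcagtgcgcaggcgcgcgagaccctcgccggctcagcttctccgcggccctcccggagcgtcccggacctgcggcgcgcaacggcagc

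The promoters of the 9 genes with a window differed in their content of CG dinucleotides, the substrate of DNA methylation, which was not measured here. The Tdrd5 window held 48 of them, at the 99.0th percentile of all windows, whose median was 7. Mael held 24, Mov10l1 held 20, Piwil1 held 18, Asz1 held 17 and Tdrd9 held 10. Genes with several annotated starts varied within themselves: the Tdrd7 windows held 4, 32 and 32, those of Tdrd1 held 20, 25 and 3, and those of Piwil4 held 11 and 0.

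Compared with ESC, all 10 genes were again higher in GSC, where 13.1% of all genes were called higher. This comparison shares the GSC arrays with the one above, so the values are given side by side and not as a second line of evidence. The differences, GSC minus ESC on the log2 scale, were 6.36 for Piwil2, 6.24 for Mael, Mov10l1 and Tdrd7 alike, 5.23 for Piwil4, 4.68 for Asz1, 4.65 for Tdrd5, 4.64 for Tdrd1, 2.10 for Tdrd9 and 1.49 for Piwil1. The median of the 10 genes was 4.96, against -0.00 for all genes. Against ESC_like, the 10 genes were called higher in GSC with a median of 4.61 (0.09 for all genes), where 11.4% of all genes were. The range was from 1.38 for Piwil1 to 6.40 for Mov10l1, and Mael, at 4.85, was closer between GSC and ESC_like than it was between GSC and ESC.

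The level of these genes in the pluripotent cultures relative to GSC differed widely from gene to gene. Expressed on the linear scale as a share of the GSC intensity, from group means, Mael stood at 1.17% in gPS, 1.32% in ESC and 3.47% in ESC_like. Piwil2 stood at 1.78% in gPS, 1.22% in ESC and 2.26% in ESC_like. Tdrd7 stood at 2.76%, 1.33% and 4.12%, and Mov10l1 at 1.48%, 1.32% and 1.18%, in the same order. Tdrd5 stood at 8.72% in gPS. The largest shares were those of the 2 genes with the lowest GSC levels: Piwil1 stood at 40.4% in gPS, 35.5% in ESC and 38.3% in ESC_like, and Tdrd9 at 28.5%, 23.4% and 20.8%. These shares include the background signal of the arrays.

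Whether gPS cells matched ESC was addressed by gPS minus ESC, in which 2 of 10 genes were called higher and none lower; of all genes 2.36% were called higher and 4.49% in either direction. Tdrd5 read 5.21, 5.23 and 5.30 in ESC, below all 5 gPS arrays. It was higher in gPS by 1.13 ± 0.17 (SE; 95% interval 0.78 to 1.49), or 2.20-fold (limma, adjusted p = 4.60e-05). Tdrd7 read 4.37, 4.47 and 3.74 in ESC, also below all 5 gPS arrays, the lowest of which was 4.68. It was higher in gPS by 1.06 ± 0.21 (SE; 95% interval 0.61 to 1.50), or 2.08-fold (limma, adjusted p = 8.53e-04). The Tdrd7 call was lost without gPS replicate 4 (0.93), gPS replicate 5 (0.95) or ESC replicate 3 (0.83). Both calls were lost with the replicate number as a block, where Tdrd5 was at 0.96 and Tdrd7 at 0.75. Replicate numbers 4 and 5 occurred only in gPS, so the block left these 2 arrays no part in the difference from ESC.

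The other 8 genes were not called between gPS and ESC. Piwil2 was 0.55 ± 0.18 (SE) above ESC, with an adjusted p of 0.0269 in limma, and 4.98, 5.24 and 4.86 in ESC did not overlap with the gPS values, of which the lowest equalled 5.24 to 2 decimals. Its 95% interval, 0.18 to 0.91, lay under a 2-fold difference. For Asz1 the interval was -0.24 to 0.38, for Piwil4 -0.24 to 0.34, for Tdrd1 -0.09 to 0.38, for Mov10l1 -0.01 to 0.35, for Piwil1 -0.15 to 0.52 and for Tdrd9 -0.08 to 0.65. Each of these intervals excludes a 2-fold difference of intensity in either direction but does not show that the levels were equal. Piwil4 had means of 2.98 in gPS and 2.93 in ESC, at the lower edge of the range. Tdrd1 had means of 3.79 and 3.65, beside 3.75 in NSC and 3.83 in MEF. Where signal is mostly background, such an interval does not exclude a 2-fold difference of transcript. Mael gave the widest interval, -0.80 to 0.46 around -0.17, with the high gPS replicate 1 among its arrays. Without that array the difference was -0.55, with an adjusted p of 1.79e-03 in limma and still under 2-fold.

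**Figure D2:**
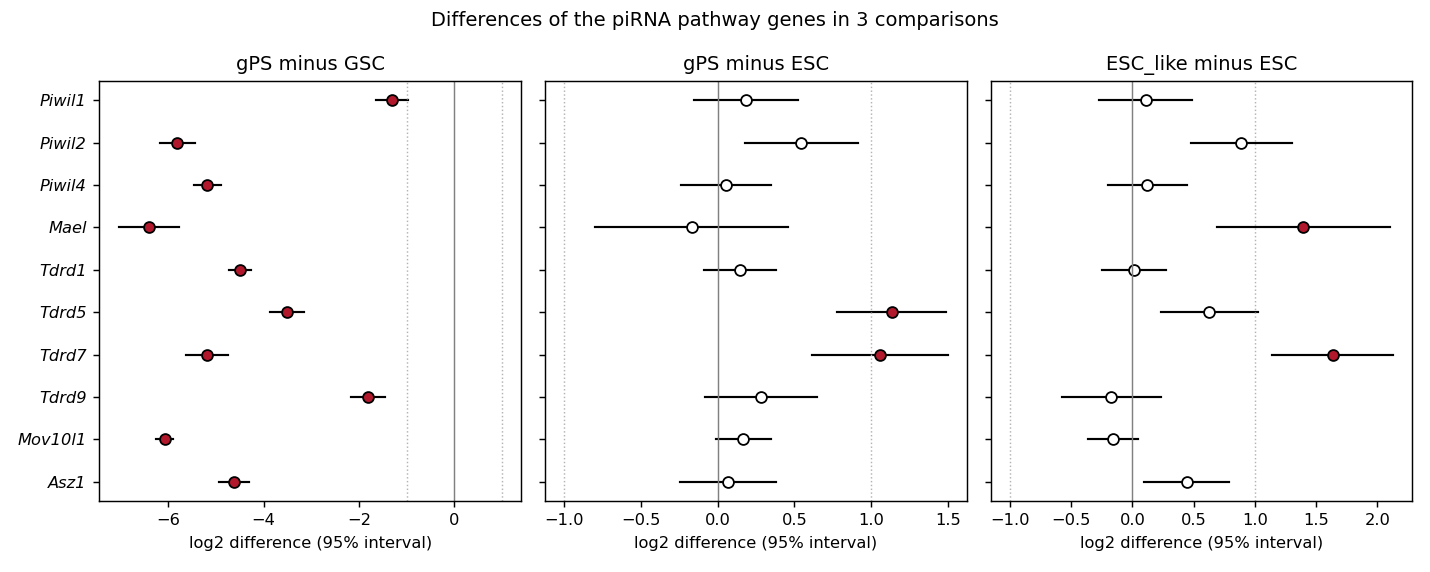
Log2 difference of each of the 10 genes (dots) with its 95% interval from limma (bars) for gPS minus GSC, gPS minus ESC and ESC_like minus ESC; filled red dots were called and dotted lines mark a 2-fold difference. All 10 genes are called in the first panel, Tdrd5 and Tdrd7 in the second, and Mael and Tdrd7 in the third.

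The ESC_like cells, like gPS cells a pluripotent culture from testis, had more Mael than either of the other pluripotent groups. Mael read 6.95, 6.71 and 6.63 in ESC_like and 5.52, 5.21 and 5.37 in ESC. The ESC_like arrays were all higher, by 1.39 ± 0.34 (SE), or 2.63-fold (limma, adjusted p = 3.68e-03). Tdrd7 read 5.75, 5.96 and 5.79 in ESC_like and was higher than in ESC by 1.64 ± 0.24 (SE), or 3.11-fold (limma, adjusted p = 2.11e-05). These 2 of 10 genes were called higher and none lower, where 5.11% of all genes were called higher and 7.21% in either direction. Piwil2 at 5.95, 5.86 and 5.94 and Tdrd5 at 5.82, 6.03 and 5.77 were above ESC by 0.89 ± 0.20 and 0.63 ± 0.19 (SE), which passed the adjusted p in limma (1.76e-03 and 0.0172) but not 2-fold. Between gPS and ESC_like directly, 1 gene was called lower in gPS and none higher, where 3.74% of all genes were called lower and 4.85% in either direction. That gene was Mael, at -1.56 ± 0.30 (SE; limma, adjusted p = 5.46e-04), or -1.94 without gPS replicate 1, the array in which Mael (6.72) lay inside the ESC_like range. The 3 comparisons among gPS, ESC and ESC_like share arrays with each other, and whether the ESC_like arrays were normalized together with the rest is not stated.

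Fibroblast feeder cells lay under all 4 germline and pluripotent cultures, and their markers differed between them. Of the 10 fibroblast markers 9 were measured (Col1a1, Col1a2, Col3a1, Col5a2, Lum, Dcn, Postn, Thy1 and Loxl1). Their sum was 7.78 to 8.13 in ESC, 10.11 to 11.61 in gPS, 10.55 to 10.83 in GSC, 12.19 to 12.56 in ESC_like and 14.77 to 14.84 in MEF, and 7 of the 9 had ESC means under the median of all values. Tdrd7 was high in MEF, at 7.88, 8.01 and 7.77, and its order ESC, gPS, ESC_like is that of the fibroblast sum. Within gPS, the array with the highest fibroblast sum (replicate 2, 11.61) had a Tdrd7 value of 4.75, lower than 3 of the other 4. The part of feeder RNA in the differences of Tdrd7 among the pluripotent cultures was not tested. For Mael and Piwil2 the MEF arrays read 2.92, 2.59 and 2.58 and 3.62, 3.60 and 3.72, below every array of the pluripotent groups.

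The somatic references divided the 10 genes. Against NSC and against MEF, all 10 genes were called higher in GSC, where 14.6% and 15.5% of all genes were, with medians of 5.20 and 5.10 against 0.09 and 0.07 for all genes. The differences from NSC ran from 1.59 for Piwil1 to 9.05 for Mael. Mael in NSC, at a mean of 2.56, stood at the 1.06th percentile of probe sets, where the signal is mostly background, so its difference can be read only as a lower bound and its rank is not settled. Tdrd7 was the exception in rank: it read 8.06, 7.97 and 7.99 in NSC and 7.88, 8.01 and 7.77 in MEF, values that lay far above those of the pluripotent cultures. GSC exceeded NSC in Tdrd7 by 2.43 ± 0.24 (SE), and MEF by 2.55 ± 0.24. Between NSC and MEF, 0 of 10 genes were called by limma, 0 had an unadjusted p under 0.05, and 17.0% of all genes were called in either direction.

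Against the somatic references, gPS and ESC_like cells had 3 genes called higher and 1 lower. In gPS minus NSC, Mael was higher by 2.63 ± 0.30, Piwil2 by 1.84 ± 0.18 and Tdrd5 by 1.78 ± 0.17 (SE), and Tdrd7 was lower, at -2.75 ± 0.21; of all genes 11.3% were called higher and 11.4% lower. Of the same 4 genes in gPS minus MEF, the values were 2.50 for Mael, 1.92 for Piwil2, 1.78 for Tdrd5 and -2.63 for Tdrd7, where 11.2% and 12.0% of all genes were called. ESC_like cells were called for these 4 genes too. ESC_like minus NSC gave 4.20 for Mael, 2.19 for Piwil2, 1.28 for Tdrd5 and -2.17 for Tdrd7 (11.3% of all genes higher and 9.69% lower), and ESC_like minus MEF gave 4.07, 2.27, 1.27 and -2.06 in that order (9.7% and 9.26%). For ESC, Mael was called lower in NSC by -2.80 ± 0.34 and in MEF by -2.67 ± 0.34, Piwil2 by -1.30 ± 0.20 and -1.38 ± 0.20, and Tdrd7 was called higher by 3.81 ± 0.24 and 3.69 ± 0.24 (SE). In NSC minus ESC 11.4% of all genes were called higher and 10.0% lower, and in MEF minus ESC 10.9% lower and 23.4% in either direction. Tdrd5 differed between NSC and ESC by -0.65, which did not reach 2-fold. The other 6 genes (Piwil1, Piwil4, Tdrd1, Tdrd9, Mov10l1 and Asz1) were called in none of these 6 comparisons, which share their arrays. This holds for the probe set that represents each gene. The second Asz1 probe set (1424939_at) was called higher in ESC_like than in NSC, by 1.05 ± 0.15 (SE).

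Ordered by group mean of the probe set that represents it, each of the 10 genes began with GSC, and the step below GSC was called in all 10. For Piwil1, Piwil4, Tdrd1, Tdrd9, Mov10l1 and Asz1 no later pair of neighbours in the order was called. Piwil2 went from GSC to ESC_like, gPS, ESC, NSC and MEF, and of the later steps that from ESC to NSC was called. Mael went from GSC to ESC_like, ESC, gPS, MEF and NSC, with called steps from ESC_like to ESC and from gPS to MEF. Tdrd5 went from GSC to gPS, ESC_like, ESC, MEF and NSC, and no step after the first was called although gPS and ESC, which are not neighbours, differed. Tdrd7 went from GSC to NSC, MEF, ESC_like, gPS and ESC, and its called steps were those from GSC to NSC, from MEF to ESC_like and from gPS to ESC.

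Piwil4, Asz1 and Tdrd7 each had a pair of probe sets, and the pairs did not give the same size of difference. The second Asz1 probe set (1424939_at) read 10.43, 10.61 and 10.48 in GSC and 3.15 to 3.63 in gPS, and gave -7.13 ± 0.13 (SE) for gPS minus GSC where the first (1422402_a_at) gave -4.62. On that second probe set ESC_like read 4.42, 4.52 and 4.43 against 3.36, 3.14 and 3.69 in ESC, a called difference of 1.07 ± 0.15 (SE), while the first gave 0.44 and was not called. The dimmer Piwil4 probe set (1439716_at) read 4.66, 4.92 and 3.64 in GSC and 3.24 to 3.53 in gPS, and its difference was -1.04 ± 0.18 (SE); the Piwil4 values above rest on 1447564_x_at, whose suffix marks probes that can also match other transcripts. The second Tdrd7 probe set (1459216_at) lay between 3.00 and 3.64 on all 20 arrays, GSC included, and showed no called difference between gPS and GSC, at -0.22 ± 0.11 (SE; limma over probe sets, adjusted p = 0.131).

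**Figure D3:**
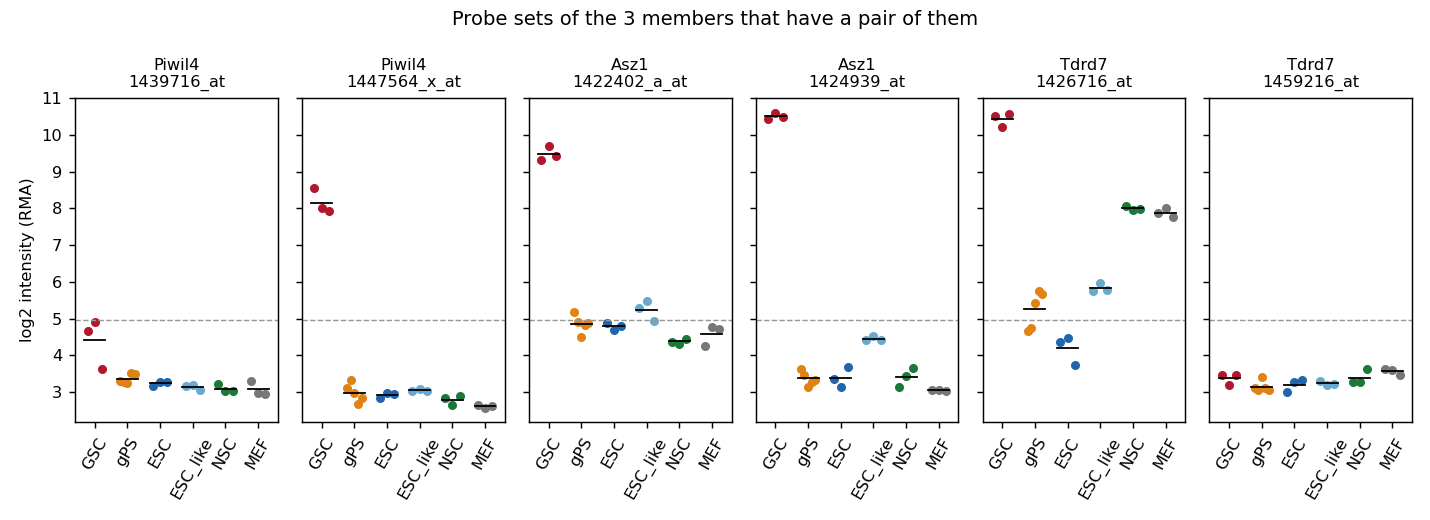
Log2 intensity (RMA) on each array for the pairs of probe sets of Piwil4, Asz1 and Tdrd7; dots are arrays, black lines are group means and the dashed line is the median of all values (4.97). Both Asz1 panels show high GSC dots, while 1 Tdrd7 probe set stays between 3.00 and 3.64 in every group.

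Other genes of the pathway, taken from a list of 24 of which 21 were measured, were mostly lower in gPS as well. For gPS minus GSC 14 of the 21 were called lower, 2 higher and 5 were not called, with a median of -1.81, beside 0.02 for all genes; of all genes 10.9% were called lower and 9.1% higher. The largest falls were those of Gtsf1, a zinc-finger partner of PIWI proteins, at -6.24 ± 0.24, Gpat2, a mitochondrial acyltransferase, at -6.11 ± 0.14, and Stk31, at -5.93 ± 0.12 (SE). Ddx4 (the VASA helicase) fell by 4.57 ± 0.23 (SE). The 2 that rose were Dnmt3l, the cofactor of de novo DNA methylation, by 5.51 ± 0.15, and Morc1, a nuclear silencing factor, by 1.42 ± 0.12 (SE). Dnmt3l read 5.92 to 6.23 in GSC and 11.45 to 11.80 in gPS, with ESC (11.54 to 11.68) in the range of gPS.

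In GSC minus ESC, 13 of these 21 genes were called higher and 2 lower, where 13.1% and 10.2% of all genes were. In GSC minus ESC_like 13 were called higher and 3 lower, where 11.4% and 11.2% of all genes were. In gPS minus ESC the called genes were Ddx4 (1.40), Tex19.1 (1.18) and Tdrd12 (1.02), all higher, and Gtsf1 (-1.34), lower. Of all 18193 genes, 430 were called higher and 387 lower there. In ESC_like minus ESC, Tex19.1 (2.73) and Gpat2 (2.00) were called higher, where 930 of all genes were called higher and 382 lower. Several of the 21 were high in the pluripotent cultures. Morc1 read 10.36 to 10.80 in gPS and 11.08 to 11.15 in ESC against 9.08 to 9.30 in GSC, and Tdrd12, a helicase with Tudor domains, read 7.68 to 9.82 in gPS and 8.66 to 8.95 in GSC.

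**Figure D4:**
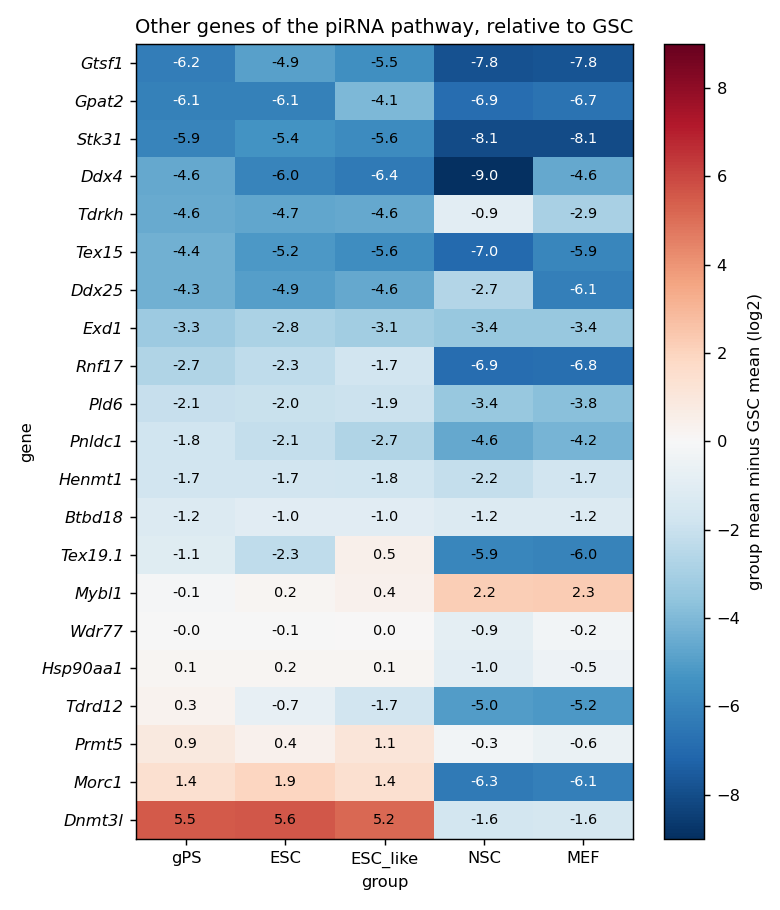
Group mean minus GSC mean (log2) for the 21 other measured genes of the piRNA pathway, 1 row per gene and 1 column per group. Dnmt3l and Morc1 are above GSC in the pluripotent groups, and Gtsf1, Gpat2 and Stk31 are below GSC in every other group.

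Relatives of the 10 genes with roles outside the pathway were called in both directions, in a share not far from that of all genes. Of 10 such genes (Ago1, Ago2, Ago3, Ago4, Mov10, Tdrd3, Snd1, Akap1, Smn1 and Phf20l1), 2 were called higher and 1 lower in gPS than in GSC, where 20.0% of all genes were called in either direction, and the median was -0.04, beside 0.02 for all genes. Ago2, the slicing Argonaute of somatic small RNA pathways, was higher in gPS by 2.77 ± 0.19 and Smn1 by 1.54 ± 0.19, while Ago3 was lower, at -1.43 ± 0.17 (SE). Ago2 read 6.06 to 6.80 in GSC, 8.62 to 9.73 in gPS and 9.21 to 9.27 in ESC, so every GSC array was below every gPS and ESC array. Mov10, the relative of Mov10l1 that many somatic cells express, differed by -0.18 and was not called.

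The genes most like the 10 in pattern were sought among 4243 genes whose highest and lowest group means were at least 4-fold apart, by Pearson's r over the 20 arrays with the mean standardised profile of the 10. The closest were Tex11 (r = 0.996), Taf7l (0.995), Tex101 (0.994), Rbm44 (0.994) and Nlrp4c (0.994). Gene by gene, the closest were Sycp1 for Piwil2 (0.994), Tex11 for Piwil4 (0.997), Syce1 for Mael (0.986), Sycp2 for Mov10l1 (0.998) and for Tdrd1 (0.995), and Taf7l for Asz1 (0.995). For the remaining 4 they were Tmprss2 for Piwil1 (0.942), C1qtnf4 for Tdrd9 (0.967), Psme1 for Tdrd5 (0.983) and Gstm5 for Tdrd7 (0.984). These correlations describe arrays that fall into groups, with the 3 GSC arrays apart from the other 17, and are given with no p.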

How the data were processed

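Total RNA of 20 mouse cell samples in 6 groups was labelled with biotin and hybridised to Affymetrix arrays, per the labels' protocols. The values the authors deposited were log2 intensities per probe set; RMA, with no version, is named in the submitters' processing notes. RMA subtracts background, brings arrays to 1 distribution by quantiles and combines the probes of each set. Probe annotation came from the platform's table, with symbols updated through gene identifiers for 34741 probe sets. The arrays held 45101 probe sets, of which 64 were controls and not tested; 1 gene symbol was given for 34945, several for 932 and none for 9160.

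The log2 values were used as deposited. Each of the 18193 genes was represented by 1 probe set, that of the highest mean across the arrays. A model with 1 mean per group and no covariate was fitted in limma 3.58.1 (lmFit, eBayes; R 4.3.3) on all 20 arrays, so that the groups shared 1 estimate of the spread per gene. Calls needed at least 2-fold and a p under 0.05 after Benjamini-Hochberg adjustment across the genes of the comparison. The fit was tested on simulated data. Levels of different probe sets were not compared with each other as amounts of transcript. The 10 genes, the gene lists, the comparisons and the alternatives were chosen with earlier results of these data known. The rule for naming genes took all 10, up to 4 called genes with values per list and comparison, and the genes most alike in pattern. Genes given with values beyond that rule were chosen after their values were seen. They were the spermatocyte and spermatid markers, Wt1, Sox9 and Clu, Mov10, and, by their ranges, Dnmt3l, Morc1 and Tdrd12. Promoter sequences and coordinates are from RefSeq, build GRCm38.p6. No pair of arrays shared more than 42 identical values.

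Alternatives were quantile normalization, median centring, weights per array, a robust fit with a variance trend, the 2 groups compared alone, ESC_like left out, averaging the probe sets of a gene, probe sets with names ending in x_at, s_at or a_at left out, genes with a highest group mean under 6 left out, no minimum difference, a stricter threshold (adjusted p under 0.01 and 4-fold), a fit on probe sets, a block for the replicate number, and each array left out in turn. Leaving out GSC replicate 1 and gPS replicate 1 together was added after seeing the data. Tables were made with pandas 2.3.3 and numpy 2.4.6 in Python 3.11.15, and plots with matplotlib 3.10.9.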

Additional observations from a re-analysis of the deposited data

Results flagged for a closer look

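Mael in gPS replicate 1 read 6.72, far from the other 4 gPS arrays, which lay between 4.63 and 4.99; the gap was 0.83 of the group's range, above Dixon's critical value of 0.71 for 5 samples. Of the 13 probe sets of the 10 genes, 5 were highest on this array within gPS (Mael, Piwil2 at 6.21, Mov10l1 at 5.25 and both Asz1 probe sets at 5.17 and 3.63), 2 were lowest (Tdrd5 at 5.99 and Tdrd7 at 4.68) and 6 lay inside the range of the other 4. Of the 8 germ cell markers, 3 were highest there (Ddx4 at 8.16, Dmrt1 at 9.30 and Ret at 5.80) and 5 lay inside that range (Dazl, Tex101, Sohlh1, Zbtb16 and Gfra1). The germ cell marker sum, which includes Ddx4 and Dmrt1, was highest there too, at 10.11. So were the sums of the pluripotency (15.37), neural (8.85) and Sertoli and Leydig cell (9.04) lists. Those of the spermatocyte and spermatid (8.40) and fibroblast (10.44) lists were not. The part of these markers in the Mael value was not tested.

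The second Tdrd7 probe set (1459216_at) read 3.40 in gPS replicate 3 against 3.07 to 3.12 on the other 4 arrays, a gap of 0.85 of the range, with all values well under the median of all probe sets. These were 2 of 13 groups of gPS values examined, and chance alone marks about 1 in 20 such groups.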

How the results depend on the processing

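The 10 calls in each of the 5 comparisons with GSC stayed at 10 when any array of the compared groups was left out. Piwil1, with a highest group mean of 5.92, was not tested when genes under 6 were left out. No result called in the main fit or in the alternative changed its sign. Some uncalled results did: without probe sets of shared suffix, Piwil4 for gPS minus ESC_like went from -0.07 to 0.23. Of the single-gene results under the alternatives, 1958 kept their side of the threshold, 21 lost a call and 11 gained one; of the counts, 560 stayed within 1.5 times the reported value and 40 did not. Replicate numbers did not pair the samples: deviations of same-numbered arrays correlated at -0.17 to 0.27. With a replicate block, the gPS minus ESC count fell from 2 to 0 for the 10 genes and from 4 to 2 for the other pathway genes, and the remaining counts stayed within 1.5 times. Replicate numbers 4 and 5 occurred only in gPS, so the block left these 2 arrays no part in the gPS differences. Over all genes the gPS minus ESC count went from 817 to 769 with the block. Leaving out 1 array gave 1 to 2 of the 10 genes for gPS minus ESC, 2 to 4 relatives for GSC minus NSC, where leaving out GSC replicate 1 gave 2, and 3 to 5 other pathway genes for gPS minus ESC. With GSC replicate 1 and gPS replicate 1 both left out, GSC minus NSC gave 2 relatives in place of 4.

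With no minimum difference, the 10 genes gave 4 calls for gPS minus ESC_like (1 with the 2-fold minimum), 4 for ESC_like minus ESC (2) and 5 for NSC minus ESC (3). The other pathway genes gave 11 for gPS minus ESC (4) and 7 for ESC_like minus ESC (2). The relatives gave 5 for gPS minus GSC (3), 6 for GSC minus MEF (3), 4 for gPS minus ESC (1), 2 for gPS minus ESC_like (0), 4 for ESC_like minus ESC (0), 8 for NSC minus ESC (3) and 5 for MEF minus ESC (1). Of all 18193 genes, the same setting called 9253 for gPS minus GSC, 9951 for GSC minus MEF and 4555 for gPS minus ESC. It called 5339 for gPS minus ESC_like, 5131 for ESC_like minus ESC, 8615 for NSC minus ESC and 8835 for MEF minus ESC.

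With the stricter threshold, the 10 genes gave 0 for gPS minus ESC, gPS minus ESC_like and ESC_like minus ESC. For gPS minus GSC, Piwil1 (-1.31) and Tdrd9 (-1.81) lost their calls, since both were under 4-fold. The other pathway genes gave 10 for GSC minus ESC_like (16), 0 for gPS minus ESC, 1 for gPS minus ESC_like (6) and 1 for ESC_like minus ESC. The relatives gave 1 for gPS minus GSC, GSC minus ESC, GSC minus ESC_like and NSC minus ESC each, 2 for GSC minus NSC and 0 for gPS minus ESC. Of all 18193 genes, the stricter threshold called 134 for gPS minus ESC, 125 for gPS minus ESC_like and 318 for ESC_like minus ESC. It called 1095 for gPS minus GSC, 1389 for GSC minus ESC and 1232 for GSC minus ESC_like. For NSC minus ESC it called 1532 and for GSC minus NSC 1831. Both thresholds act by their construction.

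With probe sets of a gene averaged, the 10 genes gave 1 for gPS minus ESC and 1 for ESC_like minus ESC, since Tdrd7 was at 0.50 and 0.83, and the relatives gave 2 for GSC minus ESC (4), 0 for gPS minus ESC and 2 for MEF minus ESC (1). Of all 18193 genes, averaging gave 573 calls for gPS minus ESC, 1004 for ESC_like minus ESC, 3357 for GSC minus ESC and 3609 for MEF minus ESC. Without the probe sets of shared suffix, the 10 genes gave 2 for gPS minus ESC_like, since Asz1 was then at -1.08, the other pathway genes gave 2 for gPS minus ESC and the relatives 2 for MEF minus ESC. Of the 16591 genes then tested, 769, 724 and 3704 were called in these comparisons, in that order. The limits of these data are 3 to 5 arrays a group, bulk cultures on feeder cells, and log intensities in which a value of about 3 to 5 includes background.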

Other observations

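The somatic references were not uniform for the other genes of the pathway. Ddx4 read 7.13 to 7.21 in MEF and 2.61 to 3.23 in NSC, a difference of -4.35 ± 0.25 for NSC minus MEF (SE; limma, adjusted over all genes), and its MEF mean of 7.17 was within 0.06 of its gPS mean of 7.23. Ddx25, a testis helicase, was higher in NSC than in MEF by 3.48 ± 0.16, and Tdrkh, a Tudor protein of mitochondria, by 1.98 ± 0.17 (SE). Tdrkh read 8.89 to 9.17 in NSC, near its GSC range of 9.88 to 9.94, and 5.01 to 5.53 in ESC. Of the 21 other pathway genes, 12 were called lower and 3 higher in NSC than in ESC, where 10.0% and 11.4% of all genes were. In MEF minus ESC 10 were called lower, where 10.9% of all genes were, and 3 higher, where 2269 of 18193 genes were called higher.

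Within the pluripotent groups, Tdrd12 had a wide spread over the gPS arrays, from 7.68 to 9.82 (SD 0.85, n = 5), beside 7.99 to 8.16 in ESC and 6.88 to 7.24 in ESC_like. Tex19.1 read 9.98 to 10.25 in ESC_like, above its GSC range of 9.57 to 9.74, and 8.01 to 9.22 in gPS. Rnf17, a Tudor protein with a RING finger, read 6.71 to 6.83 in gPS, 7.00 to 7.41 in ESC and 7.72 to 7.85 in ESC_like, and was lower in gPS than in ESC_like by -1.02.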
